A study of Mus musculus with 14 samples.

Results

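The genes of cholesterol and fatty acid synthesis were followed across 14 bulk RNA-seq libraries of mouse bone marrow cells. The set is a fixed list of 29 genes, chosen by name with earlier results of these data known, among the 52550 genes of the count table. All 29 were found in the table, and 28 of them passed the filter on low counts. Mvd, the decarboxylase of the mevalonate arm, was listed at 0 counts in all 14 libraries and was not tested.

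The libraries came from 3 groups of cells on the C57BL/6 background, from mice of 8 to 20 weeks. The first group was 4 wild-type (WT) samples of hematopoietic stem and progenitor cells (HSPCs), enriched from marrow with an antibody kit, and the second was 4 samples of the same kind from mice that lack the microRNA gene Mir139 (Mir139KO). The labels do not say for each HSPC sample whether it was lysed at once or first expanded. The remaining 6 samples were MLL-AF9 cells, WT HSPCs transduced with an MSCV retrovirus that carries the leukemic fusion gene MLL-AF9, 3 with the vector pMSCV-MLL-AF9-neo (neo, replicates 1 to 3) and 3 with pMSCV-MLL-AF9-puro (puro, replicates 4 to 6). MLL-AF9 cells had been grown with cytokines, drug-selected and replated in methylcellulose. No sample is labelled as HSPCs grown like the MLL-AF9 cells without the fusion gene, so MLL-AF9 and culture cannot be told apart. Each HSPC sample has a number of its own in the labels, but the labels do not say that these are separate mice or that the MLL-AF9 samples are separate transductions, so p-values measure the spread between these samples, which may be technical.

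Mir139 itself, whose product is too short for this kind of library, was listed at 0 counts in all 14 libraries and so gave no check of the knockout. Total counts were 35016668 to 45877994 per library, and 3 counts, taken as the lowest level that can be seen, corresponded to 0.0654 to 0.0857 CPM (counts scaled to a common library size). A single noncoding gene, Gm26917, held 17 to 21.9% of the counts in 4 HSPC libraries (WT replicates 1 and 2, Mir139KO replicates 2 and 3) and 32.7 to 35.4% in the other 4, against 7.55 to 10.4% in MLL-AF9 cells. HSPC libraries below 25% are called low-share and those above it high-share, and results are given for each class where the classes differ. The labels do not say what this split is. MLL-AF9 cells had high levels of the fusion targets Hoxa9, Hoxa10 and Meis1, summed to 311 to 1170 CPM against 18.5 to 38.1 CPM in WT HSPCs. The WT samples held 6 stem and progenitor genes at a summed 370 to 542 CPM, against 43.4 to 119 CPM in MLL-AF9 cells. They also held RNA of lineage and stroma genes. The sums were 3820 to 11900 CPM for 6 neutrophil genes, 517 to 1150 CPM for 6 erythroid genes and 169 to 1610 CPM for 6 adipocyte and stroma genes. Whether this RNA came from mature cells or from progenitors was not tested. The same lists were at 1460 to 2860, 1.9 to 3.93 and 0.603 to 7.57 CPM in MLL-AF9 cells, although 2 of the 5 adipocyte and stroma genes tested, Plin1 and Cidec, were called higher there. The sums of 5 B cell genes (33.3 to 67 CPM in WT HSPCs), 5 T and NK cell genes (88 to 163 CPM) and 5 monocyte and macrophage genes (393 to 611 CPM) were 1.47 to 6.21, 6.17 to 13.9 and 64.2 to 609 CPM in MLL-AF9 cells. The erythroid gene Alas2 and the adipocyte gene Lep were at 0 in every library. In bulk RNA, fewer cells of a type and less RNA per cell cannot be told apart, and the part of cell types in any difference below was not tested.

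Cholesterol is built from acetyl-CoA through mevalonate and isoprenoid units to squalene, which is closed into lanosterol and then trimmed and reduced step by step. Fatty acids are built from the same acetyl-CoA by a carboxylase and a synthase, then elongated and desaturated. Both routes are switched on by the SREBP transcription factors, which the escort protein SCAP carries out of the endoplasmic reticulum when sterol is scarce and which INSIG proteins hold back when sterol is plentiful, and growing cells use both routes to make membrane.

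The promoters of 5 members are shown because they carry the motifs by which this pathway is usually described, in genes that ended on opposite sides of the main comparison. Hmgcs1, Msmo1 and Hsd17b7 were called higher in MLL-AF9 cells than in WT HSPCs, and Ebp and Fasn were called lower. Each line gives the 250 bases before the start of transcription from RefSeq (build GRCm38.p6), in the direction of the gene, with motif matches in capitals.

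Hmgcs1, chr13:119690101-119690350, plus strand: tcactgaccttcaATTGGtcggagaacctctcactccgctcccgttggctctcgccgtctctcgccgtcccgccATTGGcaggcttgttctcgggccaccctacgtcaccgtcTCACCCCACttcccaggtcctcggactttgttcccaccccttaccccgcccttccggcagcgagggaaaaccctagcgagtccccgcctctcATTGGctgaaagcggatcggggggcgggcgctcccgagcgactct

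Msmo1, chr8:64733579-64733828, minus strand: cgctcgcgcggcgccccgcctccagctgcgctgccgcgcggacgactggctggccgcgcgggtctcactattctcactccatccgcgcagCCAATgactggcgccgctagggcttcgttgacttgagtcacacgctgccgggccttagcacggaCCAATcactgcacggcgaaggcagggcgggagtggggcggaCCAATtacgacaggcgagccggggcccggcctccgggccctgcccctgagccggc

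Hsd17b7, chr1:169969206-169969455, minus strand: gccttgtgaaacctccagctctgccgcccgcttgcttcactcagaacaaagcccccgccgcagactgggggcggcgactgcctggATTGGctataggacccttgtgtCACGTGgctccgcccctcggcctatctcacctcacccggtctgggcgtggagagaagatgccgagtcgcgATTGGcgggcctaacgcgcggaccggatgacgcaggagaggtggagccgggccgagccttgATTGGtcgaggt

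Ebp, chrX:8193513-8193762, minus strand: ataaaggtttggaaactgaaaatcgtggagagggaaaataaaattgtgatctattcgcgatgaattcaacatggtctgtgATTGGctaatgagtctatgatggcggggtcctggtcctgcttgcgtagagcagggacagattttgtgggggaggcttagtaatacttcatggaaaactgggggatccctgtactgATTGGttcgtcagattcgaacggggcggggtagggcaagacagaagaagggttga

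Fasn, chr11:120824548-120824797, minus strand: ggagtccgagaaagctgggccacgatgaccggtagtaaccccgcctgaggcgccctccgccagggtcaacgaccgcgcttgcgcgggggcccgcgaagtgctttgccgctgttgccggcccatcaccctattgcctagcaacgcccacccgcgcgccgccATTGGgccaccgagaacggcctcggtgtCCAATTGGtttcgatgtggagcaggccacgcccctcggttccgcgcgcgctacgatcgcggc

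The motifs searched, on both strands, were a sterol element (TCACNCCAC), the E-box CACGTG and the NF-Y box CCAAT, which reads ATTGG on the other strand. Windows of 250 bases before to 50 bases after a start were on hand for 23 of the 29 genes, in 29 windows, and Fdps, Fdft1, Sqle, Stard4, Scd1 and Scd2 had none. The NF-Y box stood in 20 of the 29 windows (69%), against 37.4% of all 32851 promoter windows. It was found in genes called higher (3 matches above in each of Hmgcs1, Msmo1 and Hsd17b7) and in genes called lower (2 in Ebp and 3 in Fasn, of which 2 overlap in a single run). The E-box stood in 6 windows (20.7%, against 7.15% of all windows), of Dhcr7, Hsd17b7, Insig1, Sc5d and Scap. The 2 windows of Scap overlap and share the same E-box, which is thus counted in both, and Dhcr7 held it in 1 of 3 windows. The sterol element stood in 1 window (3.45%, against 1.24%), that of Hmgcs1. Among the promoters shown, those of Msmo1, Ebp and Fasn held only the NF-Y box. A match describes letters in these windows and is not a measured binding site.

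Levels of the genes were compared with each other per kilobase of exon (RPKM, CPM divided by the length of all exons of the gene). In WT HSPCs the highest were Acly, which makes cytosolic acetyl-CoA from citrate, at 58.7 ± 5.89 RPKM (SD, n = 4), and Fasn, the fatty acid synthase, at 55.8 ± 30.2 RPKM (SD, n = 4). Their order turned with the share class, with Acly at 54.7 ± 1.07 and Fasn at 29.9 ± 3.59 RPKM in the low-share WT libraries and at 62.7 ± 6.26 and 81.7 ± 6.35 RPKM in the high-share ones (SD, n = 2 each). They were followed by Srebf2 at 30.6 ± 11.4, Ebp at 28.6 ± 12.2, Srebf1 at 26.9 ± 11.9 and Scd2 at 23.1 ± 3.33 RPKM, within their spread over both classes. In MLL-AF9 cells the order was Scd2 at 59.3 ± 35.4, Acly at 48.3 ± 11, Srebf2 at 19.9 ± 6.85 and Fasn at 18.9 ± 12.4 RPKM (SD, n = 6), and neighbours in it lay within their spread except that Acly stood above Srebf2 by more than their SDs. The enzymes between acetyl-CoA and cholesterol, Mvd aside, had lower levels in MLL-AF9 cells, from 0.416 ± 0.143 RPKM for Fdps to 8.81 ± 1.37 RPKM for Fdft1. Fdps, the farnesyl diphosphate synthase, held only 21 to 132 counts per library, and 26.7% of its exon bases also lie in exons of another annotated gene, so its value is uncertain.

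The first question was how MLL-AF9 cells differ from the WT HSPCs they were made from. Of the 28 tested genes, 11 rose and 6 fell (edgeR's quasi-likelihood test, adjusted p under 0.05 over all genes), and 11 were not called. Among all 17077 genes tested, 32.8% were called higher and 29.4% lower, so the members' shares are near those of genes in general. The median log2 fold change was 0.63 over the members and 0.14 over all genes. The genes that rose were spread along the sterol route (Hmgcs1, Idi1, Fdft1, Cyp51, Msmo1, Hsd17b7 and Sc5d) and included Insig1, Stard4, Scd2 and Elovl6, and those that fell were Ebp, Dhcr7, Srebf1, Scap, Fasn and Scd1. None of these 17 changed direction under any of the 24 other settings tried. Of the 28 tested genes, 5 lay higher and 2 lower without overlap of the groups, both smaller shares than the 25.9 and 24.6% of all genes. A scaling by total counts alone moved the median of all genes from 0.14 to 0.69. It gave 15 members higher and 2 lower, against 39.5 and 18.3% of all genes.

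**Figure D1:**
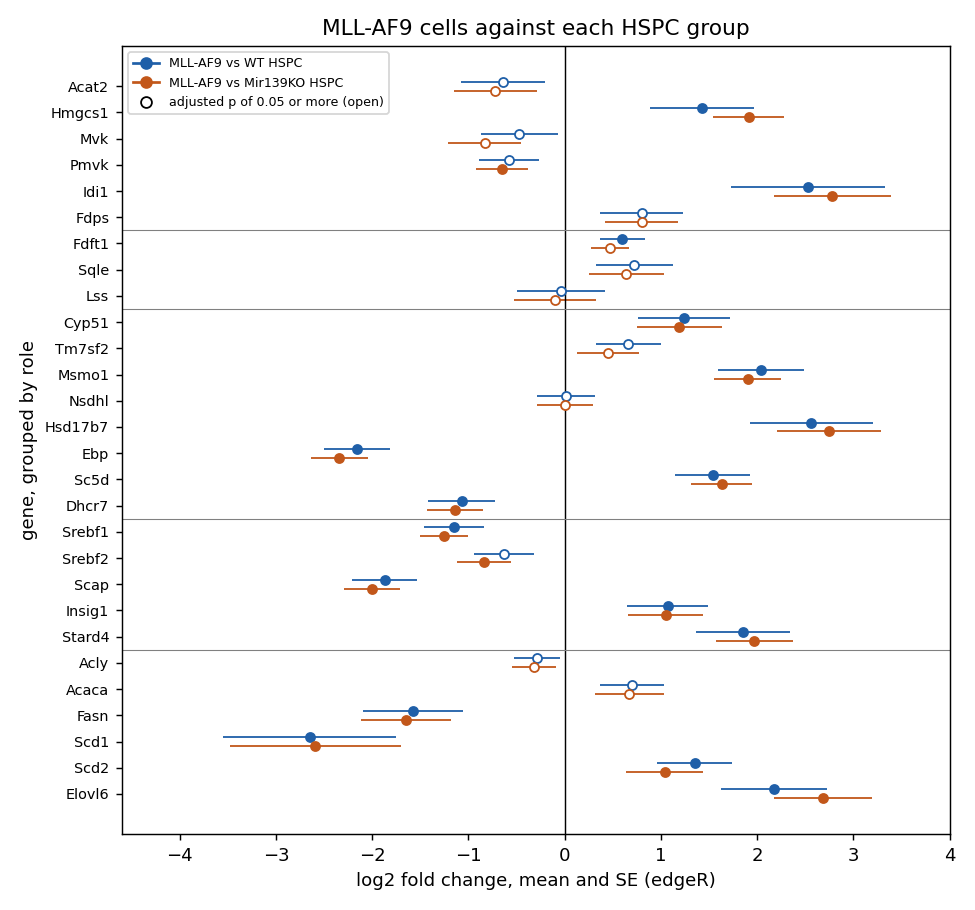
The plot of fold changes gives the log2 fold change of each gene (horizontal axis, mean and SE from edgeR) between MLL-AF9 cells and WT HSPCs (blue) or Mir139KO HSPCs (orange), with genes on the vertical axis in role groups divided by lines. Filled points have an adjusted p under 0.05: Hsd17b7 (2.56 and 2.75) and Idi1 (2.53 and 2.78) lie among the highest, and Scd1 (-2.65 and -2.59) and Ebp (-2.16 and -2.34) the lowest.

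In the mevalonate arm, which makes the isoprenoid units, 2 of 6 tested genes rose and none was called lower, against 32.8 and 29.4% of all genes. The median log2 fold change was 0.16. Hmgcs1, the cytosolic HMG-CoA synthase, stood at 13.1, 13.6, 1.97 and 3.05 CPM in WT HSPC replicates 1 to 4. Its lowest, median and highest levels in MLL-AF9 cells were 13, 18.7 and 33.2 CPM, so a single culture (neo replicate 3) reached down into the range of the WT samples. The log2 fold change was 1.43 ± 0.54 (SE, adjusted p = 0.035). Both low-share WT libraries lay well above both high-share ones, and with the low-share libraries alone the log2 fold change was 0.63 (adjusted p = 0.177). The call on Hmgcs1 was also lost without WT replicate 3 or 4, neo replicate 2 or puro replicate 5, at 1.09 to 1.34 (adjusted p = 0.0582 to 0.0943). Exons of Hmgcs1 overlap another annotated gene over 12.1% of their bases, and those of Idi1 over 9.2%.

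Idi1, the isomerase that makes the isoprenoid starter unit, was at 1.98, 2.5, 0.1 and 0.631 CPM in WT HSPCs. In MLL-AF9 cells it ran from 2.5 through a median of 5.57 to 15.6 CPM, and the log2 fold change was 2.53 ± 0.80 (adjusted p = 0.0157). The lowest WT value rests on 3 counts, and the lowest culture (neo replicate 1) met the highest WT sample. With the low-share WT libraries alone, Idi1 was at 1.71 (adjusted p = 0.106). Acat2, which joins acetyl-CoA units, the kinases Mvk and Pmvk, and Fdps were not called, with log2 fold changes of -0.64 ± 0.44, -0.47 ± 0.40, -0.58 ± 0.31 and 0.80 ± 0.43. The signs for Mvk and Pmvk changed with total counts alone and after correction for GC content.

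Of the 3 genes between squalene and lanosterol, 1 was called higher and none lower, against 32.8 and 29.4% of all genes. Fdft1, the squalene synthase, was at 21.8, 20.8, 28 and 27.2 CPM in WT HSPCs and at 26.6, 38.8 and 43.5 CPM (lowest, median, highest) in MLL-AF9 cells, a log2 fold change of 0.60 ± 0.23 (adjusted p = 0.039). This call was lost in 16 of the 24 other settings, among them DESeq2 (0.52, adjusted p = 0.0787) and 8 of the 10 fits without a single library (0.49 to 0.63, adjusted p = 0.0573 to 0.11), and 18.3% of its exon bases overlap Ctsb. Sqle, the squalene epoxidase, was at 0.72 ± 0.40 (adjusted p = 0.134), and Lss, the lanosterol synthase, at -0.04 ± 0.46 (adjusted p = 0.95). Sqle spanned 18.5 to 58.8 CPM among the MLL-AF9 cultures, a wider range than the 13.6 to 27 CPM of the WT samples.

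The steps after lanosterol moved in both directions, with 4 of 8 genes higher and 2 lower, against 32.8 and 29.4% of all genes. The median log2 fold change was 0.95. Msmo1, the methylsterol monooxygenase, was at 11.2, 11.8, 3.78 and 3.94 CPM in WT HSPCs and at 6.34, 10.8, 10.8 and 5.98 CPM in Mir139KO HSPCs. In MLL-AF9 cells its lowest, median and highest levels were 20.4, 26.6 and 54.8 CPM, and every culture lay above every HSPC sample. The log2 fold change against WT was 2.04 ± 0.45 (adjusted p = 0.00204), and Msmo1 was called under all 24 other settings, between 1.21 and 2.93.

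Hsd17b7, a keto-sterol reductase of the same stretch, rose by 2.56 ± 0.64 on the log2 scale (adjusted p = 0.00413), within the error of the rise of Idi1. Its WT levels were 5.24, 4.38, 0.969 and 1.89 CPM, and the MLL-AF9 cultures ran from 6.55 through 19.2 to 32.6 CPM, without overlap. Sc5d, the sterol desaturase, rose by 1.54 ± 0.39 (adjusted p = 0.00455), from 11.9, 11.7, 3.78 and 4.42 CPM in WT HSPCs to 18.1, 20.4 and 32.5 CPM (lowest, median, highest), again without overlap. Cyp51, the lanosterol demethylase, rose by 1.24 ± 0.48 (adjusted p = 0.0403), but its WT levels of 16.9, 20.5, 5.61 and 7.02 CPM overlapped the 16.8 to 52 CPM of the cultures. Against the low-share WT libraries alone, Cyp51 was not called (0.61, adjusted p = 0.347) and Hsd17b7 was at 1.89 (adjusted p = 0.0659). Cyp51 also lost its call without WT replicate 3 or 4, neo replicate 2 or puro replicate 5, at 0.99 to 1.04 (adjusted p = 0.0808 to 0.114).

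Ebp, the sterol isomerase, and Dhcr7, the reductase that yields cholesterol, went the other way. Ebp was at 40.1, 43.6, 92.9 and 87.6 CPM in WT HSPCs and at 102, 53.3, 53.2 and 89.7 CPM in Mir139KO HSPCs. The cultures stood at 10.9, 13.4 and 24.5 CPM (lowest, median, highest), all below every HSPC sample, and the log2 fold change was -2.16 ± 0.34 (adjusted p = 0.000231). Ebp was called lower under all 24 other settings, from -2.72 to -1.45. Dhcr7 fell by 1.07 ± 0.35 on the log2 scale (value -1.07, adjusted p = 0.0187), from 31.1, 35.5, 81.6 and 73.4 CPM to 16.7, 22.3 and 41.2 CPM, with overlap between the cultures and the low-share WT libraries. Dhcr7 was not called without WT replicate 3 (-0.85, adjusted p = 0.0689) or 4 (-0.93, adjusted p = 0.0623), or with the low-share WT libraries alone (-0.39, adjusted p = 0.367). Nsdhl, a sterol dehydrogenase, had a log2 fold change of 0.01 ± 0.30 and Tm7sf2, a sterol reductase, one of 0.66 ± 0.34, and neither was called.

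**Figure D2:**
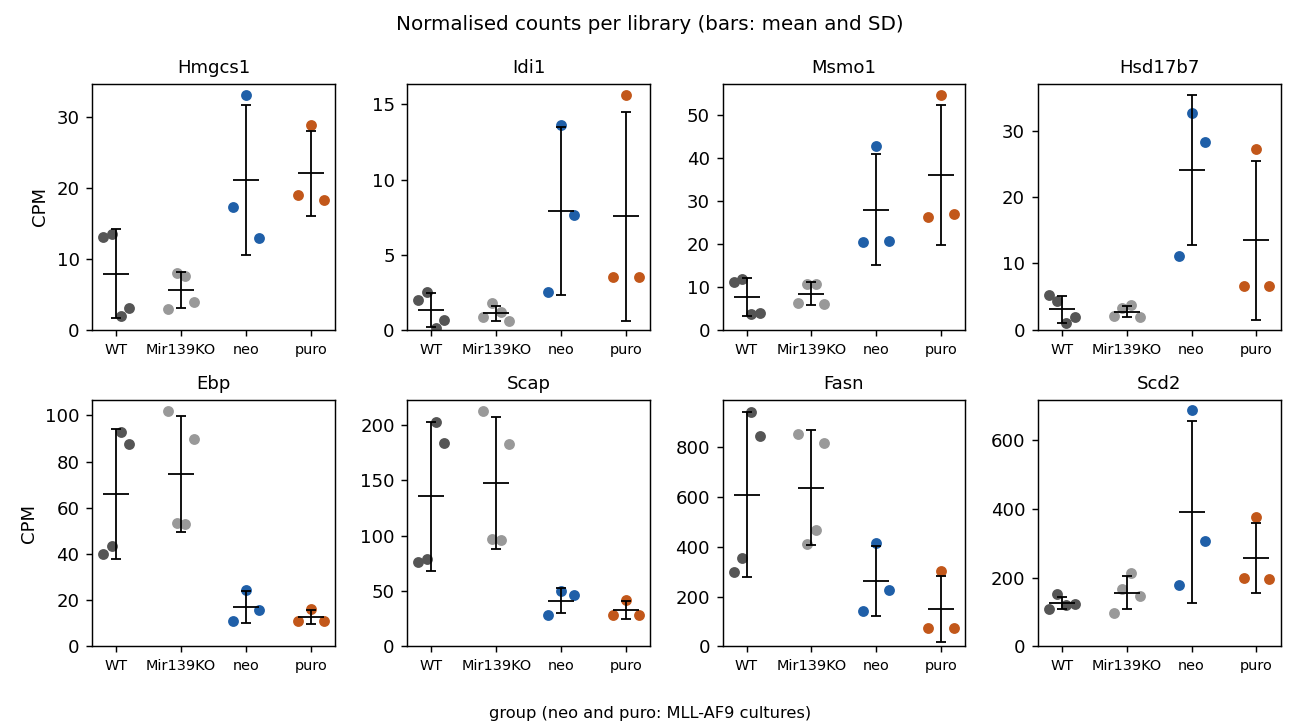
The plot of normalised counts shows 8 of the genes in every library, with CPM on the vertical axis from 0, the 4 sets of samples on the horizontal axis, a point for each library and bars for the mean and SD. Msmo1 and Hsd17b7 in all 6 MLL-AF9 cultures lie above all WT samples, Ebp and Scap lie below them, and within each HSPC group the samples split into a higher and a lower pair for the other genes than Scd2.

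Of the 5 genes that control the pathway or carry sterol, 2 rose and 2 fell, against 32.8 and 29.4% of all genes. The median log2 fold change was -0.63. Scap, the SREBP escort, was at 76.5, 78.7, 203 and 184 CPM in WT HSPCs and at 213, 97.3, 96.3 and 183 CPM in Mir139KO HSPCs. The MLL-AF9 cultures were lower, at 28.2, 35.3 and 49.7 CPM (lowest, median, highest) and without overlap, and the log2 fold change was -1.87 ± 0.34 (adjusted p = 0.000577). Scap was called lower under all 24 other settings, although its value ran from -2.49 to -0.89 and 13.2% of its exon bases overlap another gene.

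Srebf1, which encodes SREBP1, fell by 1.15 ± 0.31 (value -1.15, adjusted p = 0.00641), from 95.6, 91.9, 209 and 211 CPM in WT HSPCs to 52.4, 61.7 and 94.7 CPM, where the highest culture lay among the low-share WT samples. Srebf2, which encodes SREBP2, was not called (-0.63 ± 0.31, adjusted p = 0.0977), and its sign changed after GC correction. Insig1, an SREBP target as well as a brake on it, rose by 1.07 ± 0.42 (adjusted p = 0.042), from 18.2, 20.6, 10.6 and 11.5 CPM to 14.6, 25.3 and 62.5 CPM, with overlap. Insig1 was no longer called without neo replicate 2 or puro replicate 5, the 2 cultures where it was highest, or without WT replicate 1, 3 or 4 (0.78 to 1.16, adjusted p = 0.0564 to 0.114). Stard4, a cytosolic sterol carrier, rose by 1.85 ± 0.49 (adjusted p = 0.00609), from 19.4, 27.7, 6.68 and 8.25 CPM to 31.5, 46.4 and 96.5 CPM, without overlap. Against the low-share WT libraries alone Stard4 was at 1.20 (adjusted p = 0.0811), Insig1 at 0.67 (adjusted p = 0.323) and Srebf1 at -0.51 (adjusted p = 0.112).

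In fatty acid synthesis, 2 of 6 genes rose and 2 fell, shares near the 32.8 and 29.4% of all genes. The median log2 fold change was 0.20. Fasn, at 300, 355, 944 and 845 CPM in WT HSPCs, was at 73.6, 185 and 416 CPM in the cultures (lowest, median, highest). Its log2 fold change was -1.58 ± 0.52 (adjusted p = 0.0179), and the 2 highest cultures reached into the range of the low-share WT samples. Fasn was not called without WT replicate 3 (-1.32, adjusted p = 0.0595) or 4 (-1.41, adjusted p = 0.0533). The earlier steps were not called, with Acly at -0.29 ± 0.24 and Acaca, the acetyl-CoA carboxylase, at 0.70 ± 0.33.

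The 2 stearoyl-CoA desaturases went in opposite directions. Scd2 was at 110, 152, 120 and 123 CPM in WT HSPCs and at 180, 252 and 686 CPM in MLL-AF9 cells, a log2 fold change of 1.35 ± 0.39 (adjusted p = 0.00976) without overlap. Scd1 was at 21.6, 11.7, 7.65 and 10.6 CPM in WT HSPCs and at 0.0968, 0.857 and 8.41 CPM in the cultures, a log2 fold change of -2.65 ± 0.90 (adjusted p = 0.0223). Only neo replicate 2 reached the WT range of Scd1, and the call was lost without WT replicate 1 (-2.27, adjusted p = 0.0628). Scd1 and Scd2 are neighbours on chromosome 19 with similar coding sequence, and how the authors treated reads that fit several places is not stated, so a small exchange of reads between them cannot be told apart from expression.

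Elovl6, the elongase that makes stearate, rose by 2.17 ± 0.55 (adjusted p = 0.00472). Its WT levels were 19.4, 24.4, 6.45 and 7.35 CPM and the cultures ran from 14.2 through 67.4 to 119 CPM. A single culture, neo replicate 1, lay within the WT range and the other 5 lay above it. With the low-share WT libraries alone Elovl6 was at 1.52 (adjusted p = 0.0795), Scd2 at 1.25 (adjusted p = 0.0905), Scd1 at -3.07 (adjusted p = 0.0646) and Fasn at -0.73 (adjusted p = 0.341).

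The same cultures were compared with Mir139KO HSPCs, a comparison that shares its MLL-AF9 samples with the one above. Of the 28 genes, 10 were called higher and 8 lower, where 37.3% of all 16953 genes tested were called higher and 31.9% lower. The median log2 fold change was 0.46 over the members and 0.16 over all genes. Groups did not overlap for 6 higher and 4 lower genes of the 28, both smaller shares than the 29.7 and 28.3% of all genes. Hmgcs1, at 3.02, 8.06, 7.59 and 3.99 CPM in Mir139KO HSPCs, lay below all 6 cultures and was at 1.91 ± 0.37 (adjusted p = 0.000634). Elovl6, at 5.82, 15.6, 12.6 and 6.38 CPM, overlapped the cultures only through neo replicate 1. The log2 fold change of Idi1 was 2.78 ± 0.61 (adjusted p = 0.00148), that of Hsd17b7 2.75 ± 0.54 (adjusted p = 0.00068), that of Elovl6 2.68 ± 0.51 (adjusted p = 0.000537) and that of Ebp -2.34 ± 0.30 (adjusted p = 3e-05). Fdft1 was not called here (0.47 ± 0.20, adjusted p = 0.0549). Pmvk (-0.65 ± 0.27, adjusted p = 0.0476) and Srebf2 (-0.84 ± 0.28, adjusted p = 0.0168) were called lower, and both changed sign after GC correction, Pmvk also with total counts alone. Total counts gave 15 members higher and 3 lower, against 47.3 and 18.9% of all genes, with the median of all genes at 0.84. Leaving out Mir139KO replicate 1 or 4, neo replicate 2 or puro replicate 5 ended the calls on Cyp51 (0.90 to 1.00), Insig1 (0.76 to 0.94) and Scd2 (0.68 to 1.00), and leaving out Mir139KO replicate 2 those on Insig1 (1.09) and Scd2 (1.08). Pmvk lost its call in 6 of the 10 fits without a single library (-0.60 to -0.56), and Scd1 without Mir139KO replicate 3 (-2.39).

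Loss of Mir139 was compared within HSPCs. In edgeR, 0 of the 28 members passed between Mir139KO and WT HSPCs and 0 had an unadjusted p under 0.05, and DESeq2 called 0 as well. The background over 15056 genes was 0% called, with an unadjusted p under 0.05 in 0.571%. The log2 fold changes of the 28 genes ran from -0.53 ± 0.52 for Elovl6 to 0.34 ± 0.45 for Mvk. The spread within each genotype followed the share classes. Hmgcs1 spanned 1.97 to 13.6 CPM within WT and 3.02 to 8.06 CPM within Mir139KO samples, and its log2 fold change of -0.50 ± 0.64 has an interval of 2 SE from -1.79 to 0.78. With the share class as a covariate, none was called either. The unadjusted p was then 0.0244 for Elovl6 (-0.43), 0.0249 for Mvk (0.34) and 0.0373 for Srebf2 (0.22), each with an adjusted p of 0.995, and 3.56% of all genes had an unadjusted p under 0.05. Within the low-share libraries, 2 against 2, 9 members had an unadjusted p under 0.05 and none was called (smallest adjusted p = 0.162), where 21% of all genes had such a p. Of the 9, Hmgcs1 (-0.77) and Elovl6 (-0.63) were lower in Mir139KO HSPCs, and Dhcr7 (0.43), Ebp (0.35), Srebf1 (0.35), Srebf2 (0.35), Scap (0.32), Fasn (0.43) and Scd2 (0.55) were on the higher side. Within the high-share libraries 1 member, Msmo1 (0.64), had such a p, where 3.8% of all genes did, and Hmgcs1 was at 0.45.

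The vectors were compared within MLL-AF9 cells. Between puro and neo cultures, 0 of the 28 members passed in edgeR, 0 had an unadjusted p under 0.05 and DESeq2 called 0, against 0.873% called by edgeR, 13.7% with such a p and 8.03% called by DESeq2 among all 16503 genes. Elovl6 was the only member whose groups did not overlap, at 14.2, 66.2 and 55.4 CPM in neo and 70.9, 119 and 68.7 CPM in puro cultures (log2 fold change 0.92 ± 0.55, adjusted p = 0.542). Among all 16503 genes, 1932 lay higher in puro cultures without overlap and 1349 lower, so such a separation was common. Scd1 had a log2 fold change of -1.23 ± 1.45, the least certain of the set.

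Within the MLL-AF9 cultures the genes rose and fell together in a pattern that crossed the vectors. Neo replicate 2 and puro replicate 5 were the 2 highest of the 6 cultures for 23 of the 28 genes (82.1%), where this held for 16.4% of the 16503 genes tested, and they were the 2 lowest for none of the 28, where this held for 13% of all genes. In the labels both cultures carry the number 2 within their vector, and the labels do not say what that number stands for. This way of counting was chosen with the values in view and is given as a description without a test. The 5 genes outside the pattern were Fdft1, Tm7sf2, Hsd17b7, Scap and Elovl6. In another split, replicates 2, 3 and 5 all lay above replicates 1, 4 and 6 for 15 of the 28 genes (53.6%). That held for 26.8% of all genes, and Hsd17b7 and Scap were among the 15.

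The pattern took in both routes and the control genes. Cyp51 was at 50.6 and 52 CPM in neo replicate 2 and puro replicate 5, and at 16.8, 17.2 and 18.6 CPM in neo replicate 1 and puro replicates 4 and 6, with neo replicate 3 between at 24.5 CPM. Fasn was at 416 and 303 CPM in those 2 cultures and at 141, 73.6 and 76.2 CPM in those 3. Acat2 was at 30.9 and 22.7 against 5.81, 7.54 and 7.72 CPM. Ratios were taken of the mean of replicates 2 and 5 to the mean of replicates 1, 4 and 6, with replicate 3 left out. They were 4.59 for Idi1, 3.82 for Acat2, 3.71 for Fasn, 3.16 for Lss, 2.98 for Sqle and 2.77 for Scd2. Fdft1 was at 1.09 and Tm7sf2 at 1. The ratio of 8.67 for Scd1 rests mostly on neo replicate 2 at 8.41 CPM. Puro replicate 5 was at 2.05 CPM, and neo replicate 1 held only 5 counts (0.0968 CPM). Genes that had risen against WT HSPCs and genes that had fallen, such as Fasn and Dhcr7, thus shared the order of the cultures.

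Genes of cell division had their highest sums in the same 2 cultures. The sum of 7 proliferation genes was 2060 CPM in neo replicate 2 and 1900 CPM in puro replicate 5, 1670 CPM in neo replicate 3, and 838, 400 and 419 CPM in neo replicate 1 and puro replicates 4 and 6, against 2100 to 2570 CPM in WT HSPCs. The sum hides that the 7 genes differed in direction against WT HSPCs, with 1 called higher and 3 lower, against 32.8 and 29.4% of all genes. Mki67 was at 420, 860 and 639 CPM in neo and 176, 747 and 184 CPM in puro cultures, against 83.4 to 292 CPM in WT HSPCs. Mcm5 was at 28.9 to 225 CPM in the cultures, against 419 to 1100 CPM. The part of these genes in the members' pattern was not tested. Replicates 4 and 6 were the most alike of the cultures, with a correlation of 0.998 in log2 CPM across genes. With both summed into 1 sample, 11 members were called higher and 6 lower against WT HSPCs, where 31.3 and 28.1% of all genes were. Fdft1 was lost and Acaca gained among the higher ones.

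**Figure D3:**
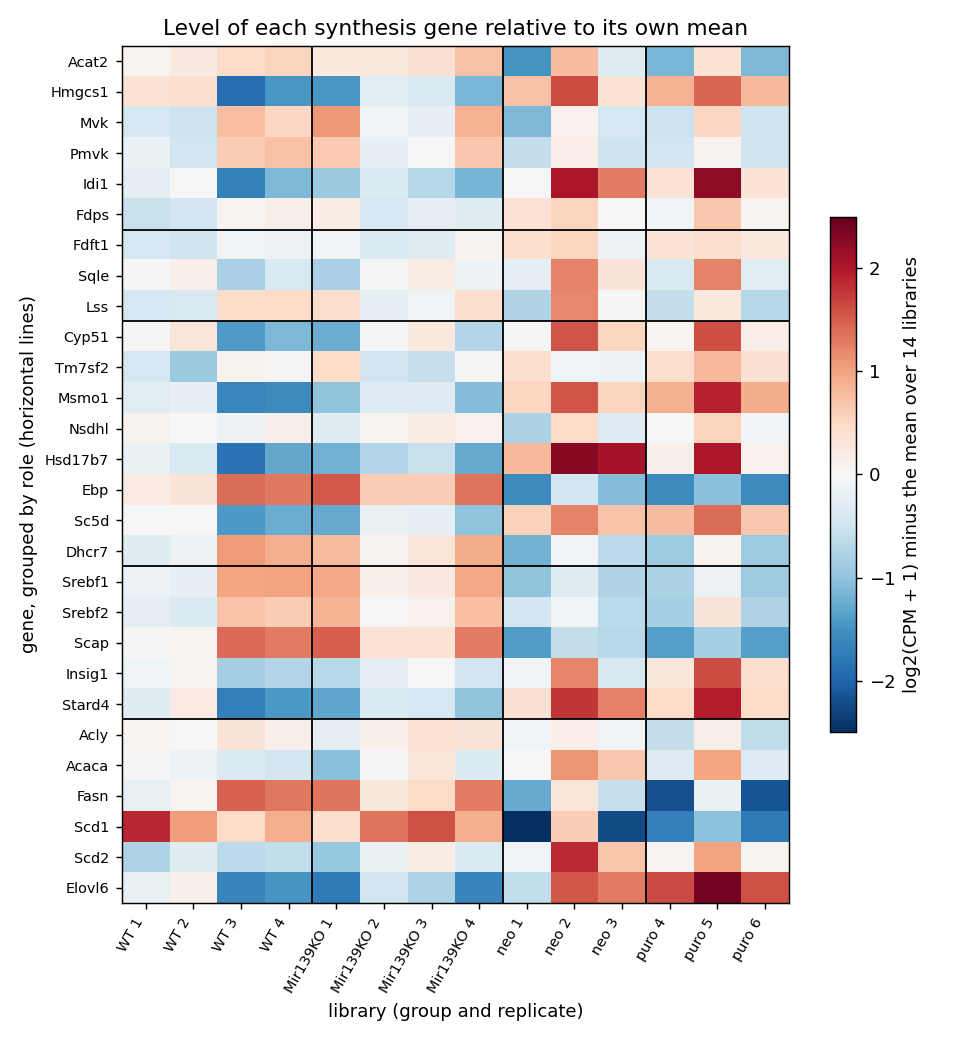
The plot of levels by library shows each gene (rows, in role groups divided by horizontal lines) in each of the 14 libraries (columns) as log2(CPM + 1) minus the gene's mean over all libraries, red above and blue below the mean. The columns of neo replicate 2 and puro replicate 5 are the reddest of the MLL-AF9 cells for 23 of 28 genes, and the WT columns 1 and 2 differ from 3 and 4 as the Mir139KO columns 2 and 3 differ from 1 and 4.

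The HSPC samples also held a pattern of their own that crossed the genotypes. In both genotypes, 12 of the 28 genes (42.9%) were higher in both low-share than in both high-share libraries, and 11 (39.3%) were lower. This held for 35.9 and 32.8% of the 15056 genes tested, so the split was common among genes in general. Low-share libraries had more Idi1 (2.24 against 0.366 CPM on average in WT, a ratio of 6.12), Hmgcs1 (ratio 5.34), Hsd17b7 (3.36) and Elovl6 (3.17). High-share libraries had more Fasn (894 against 328 CPM, a ratio of 2.73), Scap (2.49), Srebf1 (2.24) and Ebp (2.16). The ratios in Mir139KO HSPCs were smaller and in the same direction, at 2.02 for Idi1 and 2.23 for Hmgcs1, and at 1.9 for Fasn and 2.04 for Scap.

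The order of the genes in that split followed the GC content of their transcripts. Across the 28 genes, Spearman's rho between GC content and the difference of low-share from high-share WT libraries (means of log2(CPM + 1)) was -0.901, and it was -0.69 across 17048 genes. For the log2 fold change of MLL-AF9 cells against WT HSPCs, rho with GC content was -0.782 across the members and -0.393 across all genes. These are descriptions without a p, since the genes share libraries and base composition. The 11 members called higher had GC contents of 41.9 to 51.8% (median 44) and the 6 called lower 47.1 to 59.1% (median 55.3).

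**Figure D4:**
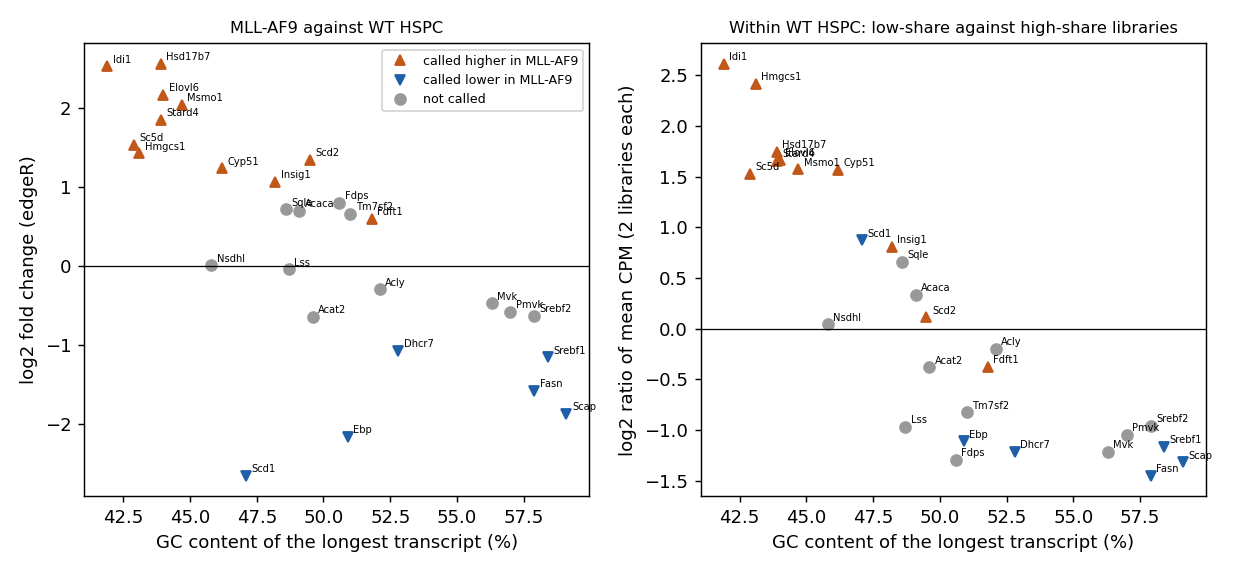
The plot against GC content gives, for 28 genes, the log2 fold change between MLL-AF9 cells and WT HSPCs (left) and the log2 ratio of mean CPM between the 2 low-share and 2 high-share WT libraries (right) on the vertical axes, against the GC content of the longest transcript in percent on the horizontal axes. Upward triangles mark genes called higher in MLL-AF9 cells, downward triangles those called lower and circles the rest, and genes low in GC such as Idi1 (41.9%) lie high in both panels while Scap (59.1%) lies low in both.

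The calls against WT HSPCs were therefore repeated in 3 ways. With a correction for GC content, 11 members were higher and 3 lower, against 31.7 and 26.5% of all genes. Cyp51, Hmgcs1, Idi1, Dhcr7, Fasn and Srebf1 were then not called, and Acaca, Tm7sf2 and Fdps were called higher. With only the 2 low-share WT libraries, 5 members were higher and 2 lower, against 21 and 20.8% of all genes, and with only the 2 high-share ones, 9 were higher and 8 lower, against 33 and 29.8%. Msmo1, Sc5d, Ebp and Scap were the 4 genes called in the same direction in all of these fits. Their log2 fold changes against the low-share libraries were 1.41, 0.92, -1.55 and -1.12, and with GC correction 1.44, 0.54, -1.74 and -0.89. The share of all genes called in every one of these fits was not counted, and the fits share their MLL-AF9 samples. Sc5d lost its call against WT HSPCs with GC correction and a replicate block together (adjusted p = 0.171). Against Mir139KO HSPCs, Sc5d was not called with GC correction, with or without the block. What the share classes are, and their part in the remaining differences, was not tested.

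Other genes of the pathway, on lists fixed by name with earlier results of these data known, moved in both directions against WT HSPCs. Of all genes, 32.8% were called higher there and 29.4% lower. Of 9 other genes of SREBP control, 1 rose and 3 fell. Mbtps2, a protease that cuts SREBP free, rose by 2.47 ± 0.40 (adjusted p = 0.000298), whereas Mbtps1, the protease that cuts before it, was at -1.08 ± 0.26 (adjusted p = 0.00329) and Rnf145, a ubiquitin ligase, at -1.82 ± 0.42 (adjusted p = 0.00258). Of 10 other isoprenoid and sterol genes, 5 rose and 1 fell. The largest of these were Pdss1 (2.25 ± 0.42, adjusted p = 0.000725) and Pdss2 (1.99 ± 0.24, adjusted p = 4.15e-05), subunits of the enzyme that makes the side chain of ubiquinone, and Pggt1b (1.75 ± 0.37, adjusted p = 0.00153), a prenyltransferase subunit.

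Of 6 genes of sterol efflux and LXR, 1 rose (Mylip, 1.40 ± 0.42, adjusted p = 0.0123) and 1 fell (Nr1h2, which encodes an LXR receptor, -1.34 ± 0.32, adjusted p = 0.00328). Of 9 genes of sterol uptake, esterification and transport, 1 fell (Npc2, a lysosomal sterol carrier, -1.32 ± 0.26, adjusted p = 0.000881) and none was called higher. Of 18 other genes of fatty acid synthesis, elongation and desaturation, 8 rose and 8 fell, against 32.8 and 29.4% of all genes. Of 9 genes of fatty acid oxidation, 3 fell, a share near that of all genes, and none was called higher. They were Hadha (-1.38 ± 0.25, adjusted p = 0.000604), Acadvl (-1.16 ± 0.28, adjusted p = 0.00383) and Cpt1a (-0.72 ± 0.21, adjusted p = 0.0106).

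Of the genes called on the fatty acid synthesis list, 3 are described by the size of their change. Me1, the malic enzyme that supplies NADPH, was at 0.457 ± 0.0643 CPM in WT HSPCs (SD, n = 4) and at 42.9 ± 43.8 CPM in MLL-AF9 cells (SD, n = 6), a log2 fold change of 6.56 ± 1.09 (adjusted p = 0.000354). It was also the only gene of these lists that was called between the vectors, at 79 ± 29.6 CPM in neo and 6.76 ± 2.65 CPM in puro cultures (SD, n = 3 each, log2 fold change -3.53 ± 0.47, adjusted p = 0.031). Fads2, a desaturase of polyunsaturated fatty acids, was at 84.1 ± 40.5 CPM in WT HSPCs (SD, n = 4) and 2.9 ± 3.78 CPM in MLL-AF9 cells (SD, n = 6), a log2 fold change of -4.88 ± 0.98 (adjusted p = 0.00113). Hacd2, a dehydratase of the elongation cycle, was at 2.32 ± 0.53 (adjusted p = 0.00253).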

How the data were processed

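Total RNA depleted of ribosomal RNA was sequenced from 4 WT HSPC, 4 Mir139KO HSPC and 6 MLL-AF9 samples (3 neo, 3 puro), grouped by their titles and descriptions. The deposited values are raw counts per gene, which the authors made with STAR 2.5.3e on build GRCm38, featureCounts 1.6.0 and GENCODE M15 gene models. Whether strand was used, and how reads with several matches were handled, is not given in the sources used here. A second count table with the same samples was not used, and 10 of its columns belong to another series. Overlapping genes were found in GENCODE M21, which placed 52403 of 52550 genes.

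The members and lists were chosen with earlier results of these data known. All 29 members are named, and of each further list at most the 3 called genes with the largest change against WT. Each comparison was fitted on its 2 groups with edgeR 4.0.16 (R 4.3.3), using TMM factors, the robust quasi-likelihood F test and Benjamini-Hochberg adjustment over all genes with at least 10 counts in as many samples as the smaller group. Genes with an adjusted p under 0.05 were called. The SE was taken from F, as the log2 fold change over its root. CPM used TMM factors over all 14 libraries. The other settings were RLE factors, total counts, DESeq2 1.42.0, other filters, all samples in 1 fit, a replicate block, a GC correction (a spline with 5 degrees of freedom per sample), single vectors, single share classes (split at 25% of counts on Gm26917), the share class as a covariate, replicates 4 and 6 summed, and each replicate left out. The steps were tested on simulated data. Limits from 3 counts cover counting error only. Promoter sequences are from RefSeq.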

Additional observations from a re-analysis of the deposited data

Results flagged for a closer look

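Of 84 sets of values, each a gene in a group, 2 held a sample whose gap to its nearest neighbour was unusually large beside the range of the group (Dixon's criterion at 95%, which chance alone meets in about 1 of 20 groups). Both were in neo replicate 2 of the MLL-AF9 cells. Lss was at 20.7 CPM there, with the next culture at 10.5 CPM and the lowest at 4.68 CPM. Scd1 was at 8.41 CPM, with the next culture at 2.05 CPM and the lowest at 0.0968 CPM. Neo replicate 2 was also among the 2 highest cultures for most of the other members and had the highest sum of proliferation genes among the 6 cultures. The part of that in these 2 values was not tested.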

How the results depend on the processing

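None of the 28 members was called between Mir139KO and WT HSPCs or between puro and neo cultures under any setting tried. The count of members higher in MLL-AF9 cells than in WT HSPCs (11) was 5 with low-share HSPC samples only (21% of all genes). It was 6 with GC correction and replicate block together (27.2% of all genes), and 7 to 11 without a single library (27.7 to 32.2%). It was 7 without WT replicate 4, neo replicate 2 or puro replicate 5. The count of lower members (6) was 2 with total counts only (18.3% of all genes), 3 with GC correction (26.5%) and 3 with GC correction and block (23.7%). It was 3 with neo cultures only (26.4%), 2 with low-share samples only (20.8%), and 4 to 8 without a single library (25.4 to 29.1%). Against Mir139KO HSPCs the lower count (8) was 3 with total counts only (18.9% of all genes) and 3 with GC correction (28.4%). It was 4 with GC correction and block (27.5%) and 3 with low-share samples only (24.8%). Without a single library it was 7 to 9 (29.4 to 32.1%), where the higher count ran from 7 to 11 (32.6 to 37.1%). The cause of these changes was not tested, though low-share fits hold fewer samples. Fits without a replicate that left a group with few samples assume that these vary like the rest.

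Same-numbered samples did not pair consistently, with correlations of -0.738 to 0.802. Between the vectors these were 0.574, 0.47 and -0.449 for numbers 1, 2 and 3. For numbers 1 and 2, the puro culture matched the neo culture of its own number best. Number 2 is that of neo replicate 2 and puro replicate 5. Between Mir139KO and WT HSPCs, numbers 2 and 4, each of a single share class, were at 0.802 and 0.646. Numbers 1 and 3, of unlike classes, were at -0.712 and -0.738. The replicate block gave 9 higher and 6 lower members against WT HSPCs, where 29.6 and 24.8% of all genes were called. Against Mir139KO HSPCs the block gave 9 and 7, where 35.8 and 31.8% of all genes were called. It changed the sign of Nsdhl (-0.20 in both comparisons) and, between vectors, of Scd1 (0.77, and 0.80 with GC correction and block).

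The other reversals in MLL-AF9 cells against HSPCs were in members not called against WT HSPCs, of which Pmvk and Srebf2 were called lower against Mir139KO HSPCs. Against WT HSPCs, Mvk was at 0.24 with total counts, 0.41 with GC correction, 0.08 with GC correction and block and 0.21 with low-share samples. Pmvk was at 0.12, 0.29 and 0.17 in the first 3 of these, Srebf2 at 0.05, 0.25 and 0.07, and Acly at 0.31, 0.24 and 0.23. Lss was at 0.64 with total counts, 0.01 with GC correction, 0.30 with neo cultures, 0.48 with low-share samples and 0.09 with replicates 4 and 6 summed, and -0.46 to 0.11 without a single library. Nsdhl was at -0.05 with RLE factors and with DESeq2, -0.57 with GC correction, -0.75 with GC correction and block, -0.14 with neo cultures, -0.06 with low-share and -0.07 with high-share samples, and -0.11 to 0.15 without a single library. Against Mir139KO HSPCs, GC correction gave 0.15 for Mvk, 0.30 for Pmvk, 0.13 for Srebf2, 0.25 for Acly and -0.57 for Nsdhl, and with the block 0.18 for Pmvk, 0.27 for Acly and -0.77 for Nsdhl. Total counts gave 0.13 for Pmvk, 0.64 for Lss and 0.35 for Acly. Lss was at 0.23 with neo cultures, 0.20 with low-share samples, 0.03 with replicates 4 and 6 summed and -0.52 to 0.04 without a single library. Nsdhl was at -0.03 with RLE factors and with DESeq2, -0.14 with neo cultures, -0.16 with low-share samples and -0.15 to 0.15 without a single library. Hmgcs1 between Mir139KO and WT HSPCs was at 0.45 with high-share samples, and Scd1 between vectors ran from -1.78 to 2.59 without a single culture.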
